A study of Mus musculus with 8 samples.

Results

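The 10 transcription factor genes described here, Eomes, Tbx21, Prdm1, Zeb2, Id2, Tcf7, Tox, Ets1, Klf2 and Ikzf2, encode regulators of natural killer (NK) cells and of the related innate lymphoid cells (ILC). They were found on the array through the RefSeq accession that each probe carries, which gave 15 probes, 2 for each of Eomes, Zeb2, Tcf7, Ets1 and Ikzf2 and 1 for each of the others. All 10 were among the 13608 genes tested, and all 15 probes were well above background on all 8 arrays. RNA came from mouse spleen NK cells that were enriched magnetically and then sorted by a ChAT-eGFP reporter, a fluorescent protein that reports the gene for choline acetyltransferase, the enzyme that makes acetylcholine. Each group, reporter-positive (ChAT-positive) and reporter-negative (ChAT-negative), held 4 samples, and each sample pooled the cells of 2 to 4 mice. Both groups were sorted by the same reporter, and strain, age, sex and treatment are not given in the sources used here. Since it is not said whether pools of a group shared mice, the p-values cover the spread among these 8 samples alone, part of which may be technical.

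NK cells and the helper-like ILC arise from a common lymphoid progenitor, and a small set of transcription factors sets their fate. Id2 blocks E proteins and so commits progenitors to the innate lineages, while Tox, Ets1 and TCF1 (the product of Tcf7) act early. The T-box factors Eomes and T-bet (the product of Tbx21) give NK cells their identity and cytotoxic program, and Blimp1 (the product of Prdm1) and Zeb2 act late, as NK cells mature in the periphery. Klf2 governs quiescence and trafficking of lymphocytes, and Helios (the product of Ikzf2) belongs to the Ikaros family of zinc finger proteins.

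Values are log2 signals less the 75th percentile of the same array, so that 0 marks the 75th percentile and 1 unit is a doubling. A gene was called when its adjusted p was under 0.05 in limma, with Benjamini-Hochberg adjustment over all genes tested and the brightest probe standing for the gene. Between 50.2% and 63.2% of non-control spots per array passed as well above background, none was saturated (0 spots), and precision is limited by having 4 arrays a group. Chat itself, the check of the sort, had a signal of 3.75 ± 0.254 (SD, n = 4) in ChAT-positive and 2.65 ± 0.343 (SD, n = 4) in ChAT-negative pools (limma adjusted p = 0.0201), so the ChAT-negative pools also held Chat signal. Each reporter group was hybridised on a separate slide, scanned separately, and for every difference between groups the slide and the sort cannot be told apart. The 11 tested NK identity markers each passed as well above background on every one of the 8 arrays.

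Of the 10 factors, 1 was lower in ChAT-positive pools, Prdm1, and 0 were higher. Over all genes tested, 3.15% were called lower and 2.81% higher, 5.96% in either direction, and a count of 1 among 10 genes shows nothing particular to these factors. At an unadjusted p under 0.05, 3 members were lower (Prdm1, Tox and Eomes) and 0 were higher, beside 24.8% of all genes in either direction (1617 lower and 1759 higher of 13608). The means of 7 members were lower and those of 3 were higher in ChAT-positive pools, beside 6380 lower and 7228 higher over all genes. The median difference over the 10 was -0.25, beside 0.0255 over all genes tested. The groups did not overlap for 1 member by its brightest probe, Prdm1, and over all genes they did not overlap for 6.14% in the lower and 9.37% in the higher direction.

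**Figure D1:**
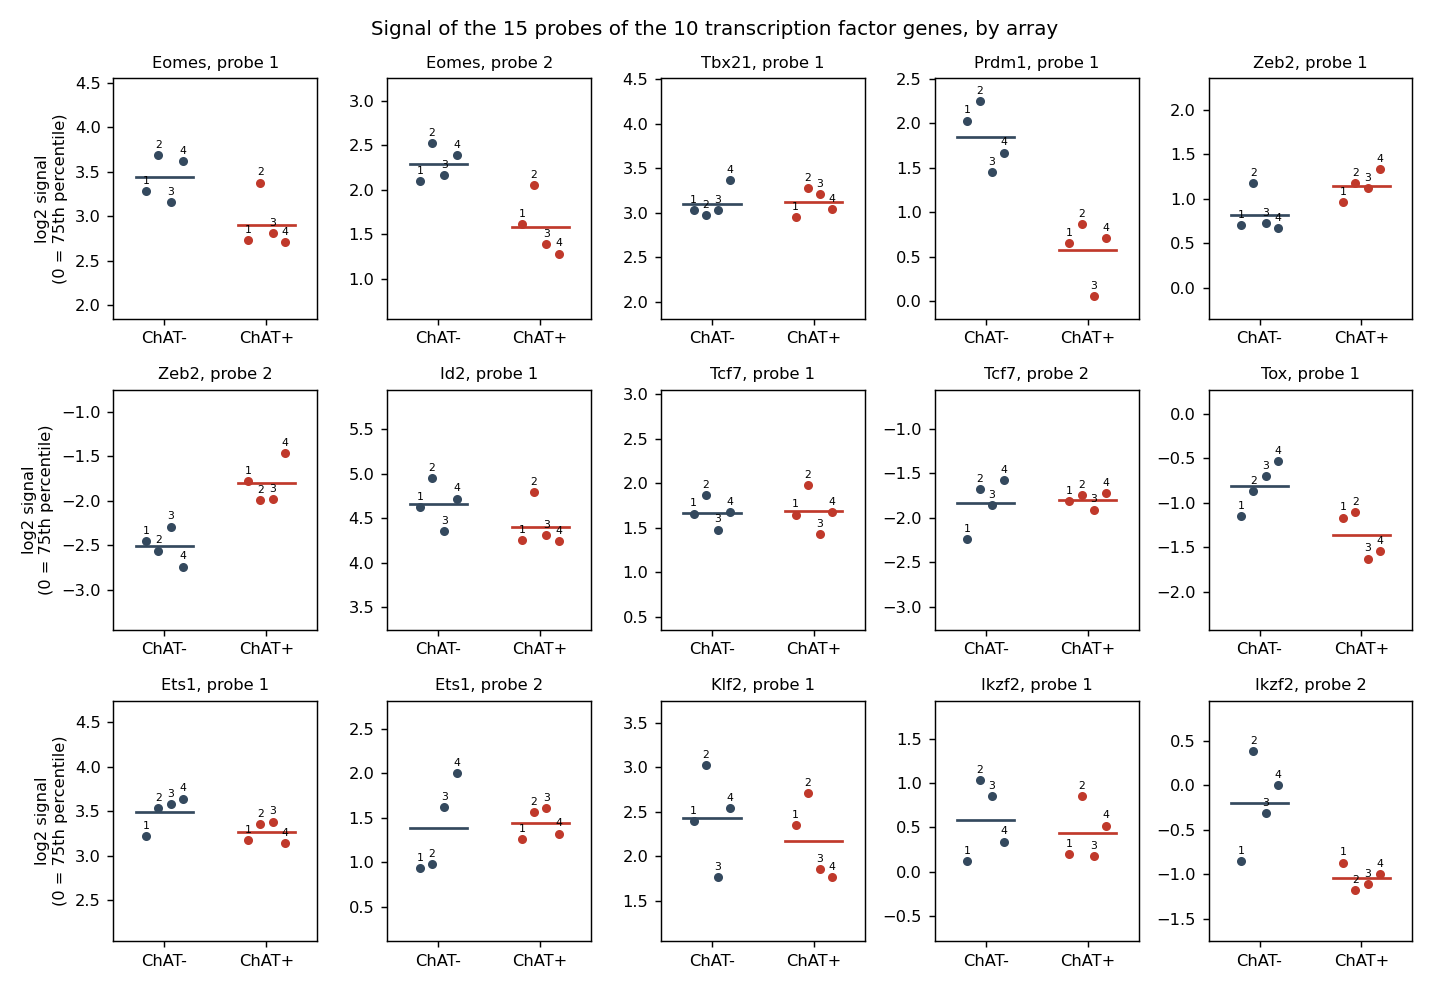
Log2 signal of each of the 15 probes on each array (vertical axis, 0 is the array's 75th percentile; every panel spans the same number of units), for ChAT-negative (dark) and ChAT-positive (red) pools numbered by replicate, with lines at the group means. The groups stand apart for the probe of Prdm1 and for the second probes of Eomes, Zeb2 and Ikzf2.

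Prdm1 encodes Blimp1, a zinc finger repressor that is raised as NK cells mature. Its 1 probe gave 0.65, 0.87, 0.06 and 0.71 in ChAT-positive pools 1 to 4 and 2.03, 2.25, 1.45 and 1.67 in ChAT-negative pools 1 to 4. The lowest ChAT-negative pool, number 3, stood above the highest ChAT-positive pool, number 2. The group means were 0.57 ± 0.353 and 1.85 ± 0.357 (SD, n = 4 each). Prdm1 fell by 1.28 (SE 0.226, limma adjusted p = 0.0196), which is a 2.42-fold lower signal with a 95% interval of 1.7 to 3.45. The call held whichever single array was left out (adjusted p from 0.023 to 0.0498). It was lost without both arrays numbered 3 (0.0563), with no filter on dim probes (0.0521) and at an adjusted p under 0.01.

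The 250 bases before the RefSeq start of Prdm1 are shown because it is the called member, those of Eomes and Tbx21 because these paralogs are compared below, and 1 of the 4 Zeb2 windows, chosen after the matches were seen, because it holds the BACH2 core. Sequences are from RefSeq on GRCm38.p6, 5′ to 3′ on the gene's strand, and 7 of the 10 members had a window, 11 windows in all. Capitals mark matches, on either strand, to any of 6 motifs: a T-box site (GGTGTGA), a ZEB-type E-box (CAGGTG), a BACH2 core (TGAGTCA), a RUNX site (TGTGGTT), a TCF7 site (CTTTGAT) and a BLIMP-1 core (GAAAGTG). The E-box and the T-box site share the letters GGTG and can overlap.
Prdm1, chr10:44458749-44458998, minus strand: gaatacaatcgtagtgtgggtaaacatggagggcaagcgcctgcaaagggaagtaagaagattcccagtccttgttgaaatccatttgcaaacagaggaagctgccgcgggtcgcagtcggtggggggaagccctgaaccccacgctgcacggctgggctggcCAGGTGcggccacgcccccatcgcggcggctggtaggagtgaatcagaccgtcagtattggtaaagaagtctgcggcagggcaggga
Eomes, chr9:118477939-118478188, plus strand: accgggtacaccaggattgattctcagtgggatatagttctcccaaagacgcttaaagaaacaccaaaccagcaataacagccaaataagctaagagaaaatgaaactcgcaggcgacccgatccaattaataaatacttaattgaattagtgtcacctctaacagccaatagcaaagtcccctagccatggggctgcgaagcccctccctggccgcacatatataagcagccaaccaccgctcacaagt
Tbx21, chr11:97115332-97115581, minus strand: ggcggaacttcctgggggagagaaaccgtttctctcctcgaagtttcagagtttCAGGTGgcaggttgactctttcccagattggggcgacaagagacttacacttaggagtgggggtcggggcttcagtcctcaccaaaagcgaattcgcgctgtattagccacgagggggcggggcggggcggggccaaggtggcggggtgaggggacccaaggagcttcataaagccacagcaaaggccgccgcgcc
Zeb2, chr2:45110278-45110527, minus strand: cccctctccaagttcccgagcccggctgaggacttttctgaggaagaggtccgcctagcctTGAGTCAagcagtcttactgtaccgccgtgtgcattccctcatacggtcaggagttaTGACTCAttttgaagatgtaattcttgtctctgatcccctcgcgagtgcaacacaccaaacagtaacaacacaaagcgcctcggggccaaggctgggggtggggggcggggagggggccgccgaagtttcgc
The Prdm1 window held 1 ZEB-type E-box, which began 87 bases before the start, and the Tbx21 window held 1 that began 196 bases before it. Of 32851 RefSeq windows of this length, 17.2% held that motif. The Zeb2 window held the BACH2 core at 189 and, on the other strand, at 132 bases before the start, and 4.46% of windows held it at least once. The Eomes window held none of the 6 motifs. The T-box site (3.33% of windows), the RUNX site (4.4%), the TCF7 site (3.21%) and the BLIMP-1 core (4.01%) were in none of the 11 member windows. A match is a string of letters and not evidence of binding.

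Of the T-box factors, neither was called, and Eomes had the lower mean in ChAT-positive pools. Eomes, which NK cells need to complete their development, gave 2.73, 3.38, 2.81 and 2.71 in ChAT-positive pools 1 to 4 by its brighter probe and 3.28, 3.69, 3.16 and 3.62 in ChAT-negative pools 1 to 4. Only ChAT-positive pool 2 reached into the ChAT-negative range. The log2 difference was -0.53 (SE 0.191, limma adjusted p = 0.133), with a 95% interval of -0.96 to -0.09 before any adjustment, and Eomes was not called. Scaling each array by its median instead of its 75th percentile gave -0.31 (adjusted p = 0.391), where the median difference of all genes moved from 0.0255 to 0.242. Its dimmer probe gave 1.61, 2.05, 1.39 and 1.28 against 2.1, 2.52, 2.16 and 2.39, and there the groups did not overlap. With every probe fitted on its own, 32087 probes in all, that probe's difference was -0.71 (SE 0.193, limma adjusted p = 0.0825), and it passed the threshold without ChAT-positive pool 2 (difference -0.86, adjusted p = 0.0485).

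Tbx21 encodes T-bet, the other T-box factor of NK cells. It gave 2.95 to 3.28 in ChAT-positive and 2.97 to 3.37 in ChAT-negative pools, with a difference of 0.02 (SE 0.135, limma adjusted p = 0.953) and a 95% interval of -0.29 to 0.32. The ranges nearly coincided, and the sign of the difference turned under normexp background correction (-0.1). To compare the changes of Eomes and Tbx21, their log2 difference was taken within each array, which cancels the scaling of the array. Relative to the ChAT-negative mean, this difference was -0.55, -0.23, -0.74 and -0.66 in ChAT-positive pools 1 to 4 and -0.08, 0.38, -0.21 and -0.09 in ChAT-negative pools 1 to 4. The groups did not overlap, by a narrow margin between ChAT-positive pool 2 and ChAT-negative pool 3. Eomes was thus lower relative to Tbx21 by 0.54 on the log2 scale (two-sided exact permutation p = 0.0286, 0.0286 adjusted over the 4 differences tested). That is the smallest p that 4 against 4 arrays allow, and all 4 differences had it, so the adjustment changed nothing. The pairs were chosen with earlier results of these data known, so this p adds no separate support for a change in Eomes. The difference largely restates that of Eomes alone (-0.53), since that of Tbx21 was 0.02. This difference missed the threshold without any 1 ChAT-negative pool (exact permutation p = 0.0571 each, value without pool 2, -0.42). With 1 pool left out the groups still did not overlap, and 3 against 4 arrays allow no exact p under 0.0286. It also missed the threshold under normexp background correction (-0.37, exact permutation p = 0.0857).

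Zeb2, a zinc finger repressor that acts downstream of T-bet in late NK maturation, lay on the higher side. Its brighter probe gave 0.96, 1.17, 1.12 and 1.33 in ChAT-positive pools 1 to 4 against 0.7, 1.17, 0.72 and 0.67 in ChAT-negative pools 1 to 4. ChAT-negative pool 2 stood within the ChAT-positive range, and the other 3 lay below it. The difference was 0.33 (SE 0.149, limma adjusted p = 0.21) with a 95% interval of -0.01 to 0.67. Under median scaling it was 0.55 (adjusted p = 0.147), where the all-gene median also moved up, to 0.242. The dimmer probe gave -1.78, -1.99, -1.98 and -1.46 against -2.45, -2.56, -2.29 and -2.74, with no overlap. In the fit of every probe its difference was 0.71 (SE 0.166, limma adjusted p = 0.0571), and it was called under quantile normalization (0.83, adjusted p = 0.038) and normexp (0.65, adjusted p = 0.0326). Both probes of Zeb2 thus had higher means, and neither was called in the fits as reported.

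Zeb1, the paralog of Zeb2, had a log2 difference of 0.02 (SE 0.125, limma adjusted p = 0.939). Within arrays, Zeb2 was higher relative to Zeb1 by 0.31 (two-sided exact permutation p = 0.0286, 0.0286 adjusted over the 4 differences). That value largely restates the difference of Zeb2 alone (0.33), which was not called. Relative to the ChAT-negative mean, Zeb2 minus Zeb1 was 0.24 to 0.43 in ChAT-positive and -0.2 to 0.19 in ChAT-negative pools, so the groups lay close but apart. Without any 1 ChAT-positive pool the exact permutation p was 0.0857, though the groups still did not overlap.

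**Figure D2:**
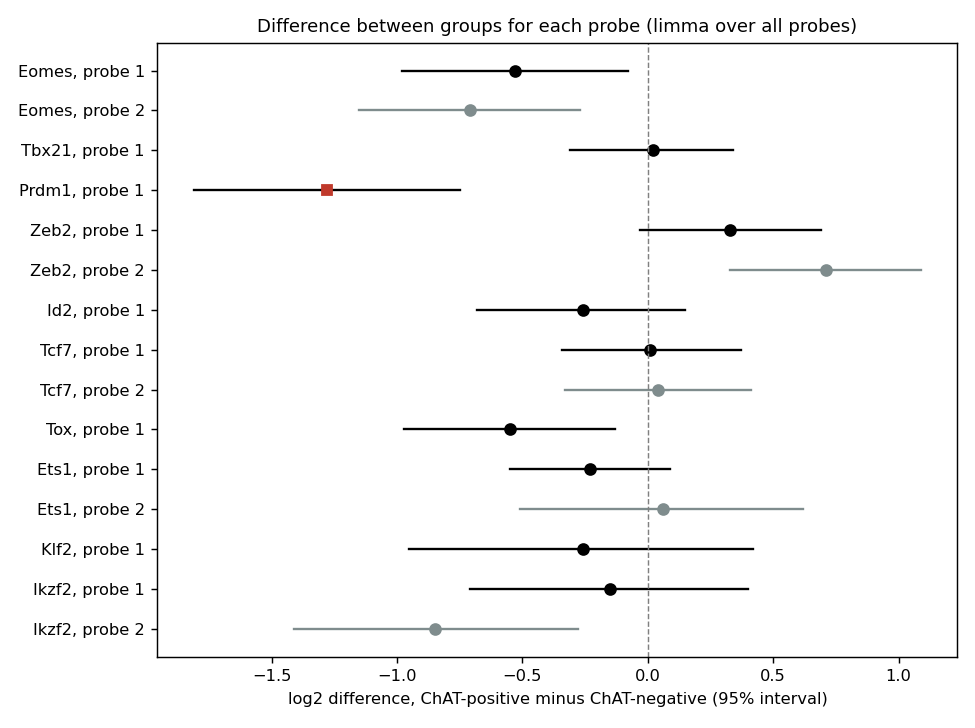
Log2 difference between groups (ChAT-positive minus ChAT-negative, horizontal axis) for each of the 15 probes with its 95% interval, from limma over all 32087 probes that passed the filter; black marks the brightest probe of a gene, grey its other probe and a red square an adjusted p under 0.05. Prdm1 at -1.28 is the 1 probe past the threshold, and the second probes of Zeb2 (0.71), Eomes (-0.71) and Ikzf2 (-0.85) lie next.

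Of the early factors, none was called. Tox, an HMG-box protein needed for NK and ILC progenitors, gave -1.17, -1.11, -1.63 and -1.55 in ChAT-positive pools 1 to 4 and -1.15, -0.87, -0.7 and -0.53 in ChAT-negative pools 1 to 4. ChAT-negative pool 1 lay below ChAT-positive pool 2, so the groups overlapped at their edges. The difference was -0.55 (SE 0.179, limma adjusted p = 0.103), with a 95% interval of -0.96 to -0.15. Its mean stayed lower in all 22 alternatives, from -0.66 to -0.33, and it was called in none of them.

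Tcf7 encodes TCF1, which marks early ILC progenitors and less mature NK cells. Its brighter probe had means of 1.68 ± 0.229 and 1.67 ± 0.162 and its dimmer probe -1.8 ± 0.0853 and -1.84 ± 0.292 (SD, n = 4 each) in ChAT-positive and ChAT-negative pools. The brighter probe's difference had a 95% interval of -0.32 to 0.35, and its sign turned under quantile normalization (-0.029). Prdm1 was lower relative to Tcf7 within arrays by 1.29, with ChAT-positive pools between -1.54 and -1.14 and ChAT-negative pools between -0.2 and 0.2 around their own mean (two-sided exact permutation p = 0.0286, 0.0286 adjusted over the 4 differences). That difference kept its side of the threshold whichever single array was left out, where groups without overlap stay apart. It largely restates the difference of Prdm1 alone (-1.28), since that of Tcf7 was 0.01.

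Id2 encodes the inhibitor of E proteins that commits progenitors to the innate lineages. It gave 4.25, 4.79, 4.31 and 4.24 in ChAT-positive pools 1 to 4 and 4.62, 4.95, 4.35 and 4.72 in ChAT-negative pools 1 to 4, and the groups overlapped. The difference was -0.26 (SE 0.176, limma adjusted p = 0.394) with a 95% interval of -0.66 to 0.14. It was -0.044 under median scaling, where the all-gene median was 0.242. With 1 array left out it was between -0.39 (without ChAT-positive pool 2) and -0.16 (without ChAT-negative pool 2). Id3, an Id2 paralog that also blocks E proteins, had a log2 difference of 0.56 (SE 0.166, limma adjusted p = 0.0815) with no overlap between groups, and was called under normexp (0.65, adjusted p = 0.0382). Within arrays, Id2 was lower relative to Id3 by 0.82 (two-sided exact permutation p = 0.0286, 0.0286 adjusted over the 4 differences), with ChAT-positive pools at -0.75, -0.73, -1.14 and -0.65 and ChAT-negative pools between -0.2 and 0.34. The larger part of this is the difference of Id3 (0.56), beside -0.26 for Id2. Id2 minus Id3 passed the threshold whichever single array was left out, where groups without overlap stay apart.

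**Figure D3:**
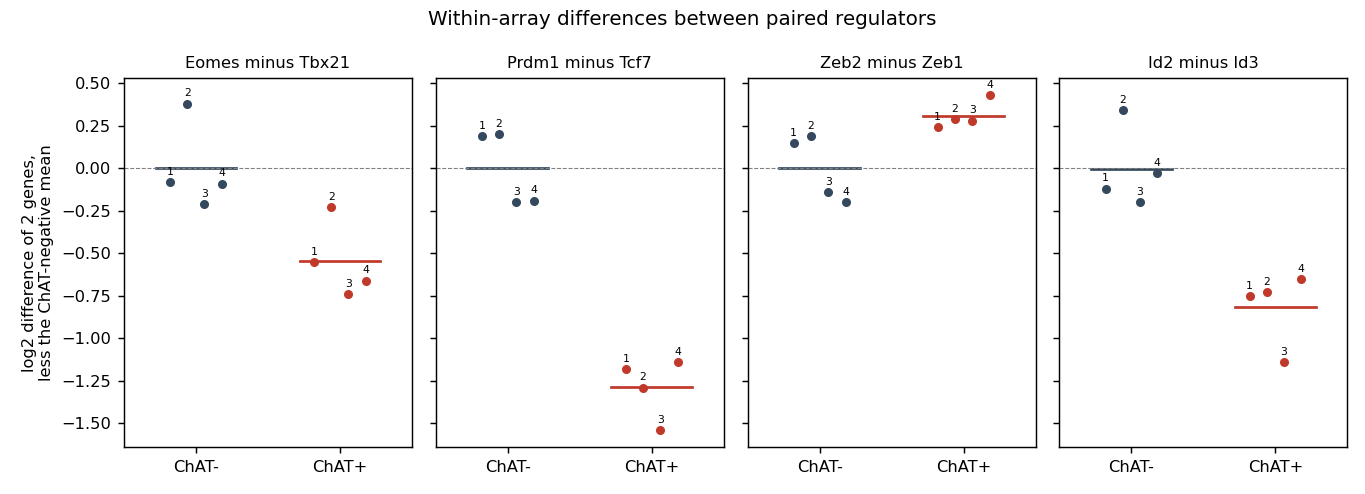
Log2 difference between the brightest probes of 2 genes within each array, less its ChAT-negative mean (vertical axis), for 4 pairs of regulators in ChAT-negative (dark) and ChAT-positive (red) pools numbered by replicate, with lines at the group means. The groups do not overlap for any of the 4 pairs, and Prdm1 minus Tcf7 has the widest gap. The pairs were chosen with earlier results of these data known, and the share of other gene pairs without overlap was not computed.

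Ets1, the founding member of the ETS family and a factor of early NK development, gave 3.14 to 3.38 in ChAT-positive and 3.22 to 3.64 in ChAT-negative pools by its brighter probe. The difference was -0.23 (SE 0.132, limma adjusted p = 0.318), and -0.013 under median scaling, where the all-gene median was 0.242. Its dimmer probe had a difference of 0.06 (SE 0.248, adjusted p = 0.922 in the limma fit of every probe), so the 2 probes of Ets1 differed in sign, and neither was called. Klf2 gave 1.77 to 2.71 in ChAT-positive and 1.77 to 3.03 in ChAT-negative pools, the widest spread of the 10, with a difference of -0.26 (SE 0.294, limma adjusted p = 0.621). Its 95% interval of -0.93 to 0.4 holds changes of moderate size in either direction. The value was -0.046 under median scaling, again beside an all-gene median of 0.242. It was between -0.49 (without ChAT-negative pool 3) and -0.064 (without ChAT-negative pool 2) with 1 array left out.

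The 2 probes of Ikzf2 gave unequal differences. The brighter probe gave 0.18 to 0.85 in ChAT-positive and 0.12 to 1.03 in ChAT-negative pools, with a difference of -0.15 (SE 0.237, limma adjusted p = 0.734) whose sign turned under median scaling (0.067, below the all-gene median of 0.242 there). The dimmer probe gave -0.87, -1.18, -1.11 and -1 in ChAT-positive pools 1 to 4 and -0.85, 0.38, -0.31 and 0 in ChAT-negative pools 1 to 4. ChAT-negative pool 1 lay just above the highest ChAT-positive pool, and the other 3 lay well above it. That probe's difference was -0.85 (SE 0.247, adjusted p = 0.096 in the limma fit of every probe), and it was called without ChAT-negative pool 1 (-1.06, adjusted p = 0.0437). Over the 15 probes the groups did not overlap for 4, the probe of Prdm1 and the second probes of Eomes, Zeb2 and Ikzf2, beside 14.3% of all probes. By limma over all probes, 1 of the 15 was called lower, that of Prdm1 (adjusted p = 0.0319), beside 1.64% of all probes, and 0 were called higher, beside 1.46% (3.09% in either direction). Whether the probes of a gene read different transcripts was not tested.

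Other transcription factors of NK cells and ILC were measured in the same fit. Of 36 listed, 33 were tested, 3 were called higher in ChAT-positive pools and 1 was called lower, with a median difference of -0.01. Over all genes tested, 2.81% were called higher and 3.15% lower. Bach2, a repressor known to bind the Prdm1 gene in lymphocytes, rose by 0.67 (SE 0.15, limma adjusted p = 0.0368). Maf, a factor of type 17 and other effector programs, rose by 0.6 (SE 0.146, adjusted p = 0.0489), and Myb, a factor of lymphoid progenitors, fell by 0.64 (SE 0.134, adjusted p = 0.0312). Of these 3, Bach2 kept its call with 1 array left out only where that was ChAT-positive pool 2, Maf only where it was ChAT-positive pool 3, and Myb only where it was ChAT-positive pool 2 or ChAT-negative pool 1 (adjusted p up to 0.101, 0.117 and 0.0911). Under median scaling these 3 were not called (adjusted p = 0.0926, 0.0513 and 0.21), while Prdm1 was (-1.06, adjusted p = 0.0152). Maf was also not called under quantile normalization (0.0702) and normexp (0.101), nor Bach2 with the mean of its probes (0.114). Median scaling moved calls over all genes from 383 higher and 428 lower to 211 higher and 119 lower.

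Of 29 family relatives of the 10 factors, 25 were tested and 1 was called, with a median of 0.07, beside 5.96% of all genes called in either direction. Id1, another inhibitor of E proteins, fell by 1.43 (SE 0.291, limma adjusted p = 0.0286), and 1 of its 4 ChAT-positive arrays was not well above background. Its call was lost without ChAT-positive pool 3 or 4 or ChAT-negative pool 3 or 4 (adjusted p up to 0.0825), and its difference was -0.8 under normexp (adjusted p = 0.0421). Of 18 textbook target genes of the factors, all tested, 1 was called lower, Prf1, and 0 were called higher, with a median of -0.3. At an unadjusted p under 0.05, 6 of the 18 were lower and 3 were higher. Over all genes tested, 3.15% were called lower and 2.81% higher, and 1 call shows nothing particular to the relatives or to the targets. Prf1, which encodes perforin and is a target of Eomes and T-bet, fell by 0.62 (SE 0.152, limma adjusted p = 0.0481), and kept that call with 1 array left out only where that was ChAT-positive pool 2 (adjusted p up to 0.132). Prf1 was also not called under median scaling (-0.4, adjusted p = 0.255), quantile normalization (0.0725) or normexp (0.0601). S1pr5, an egress receptor gene that depends on T-bet and Zeb2, was picked after its values were seen. Its mean signal was -1.91 ± 0.385 in ChAT-positive and -0.96 ± 0.377 in ChAT-negative pools (SD, n = 4 each), with no overlap and a difference of -0.95 (SE 0.24, limma adjusted p = 0.0519). It lay near the threshold, with an adjusted p from 0.0226 to 0.157 over 21 alternatives, of which 6 called it, among them the deposited table (0.0494). S1pr1, another receptor gene of that list, went the other way, with a difference of 0.68 (SE 0.284, limma adjusted p = 0.181).

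**Figure D4:**
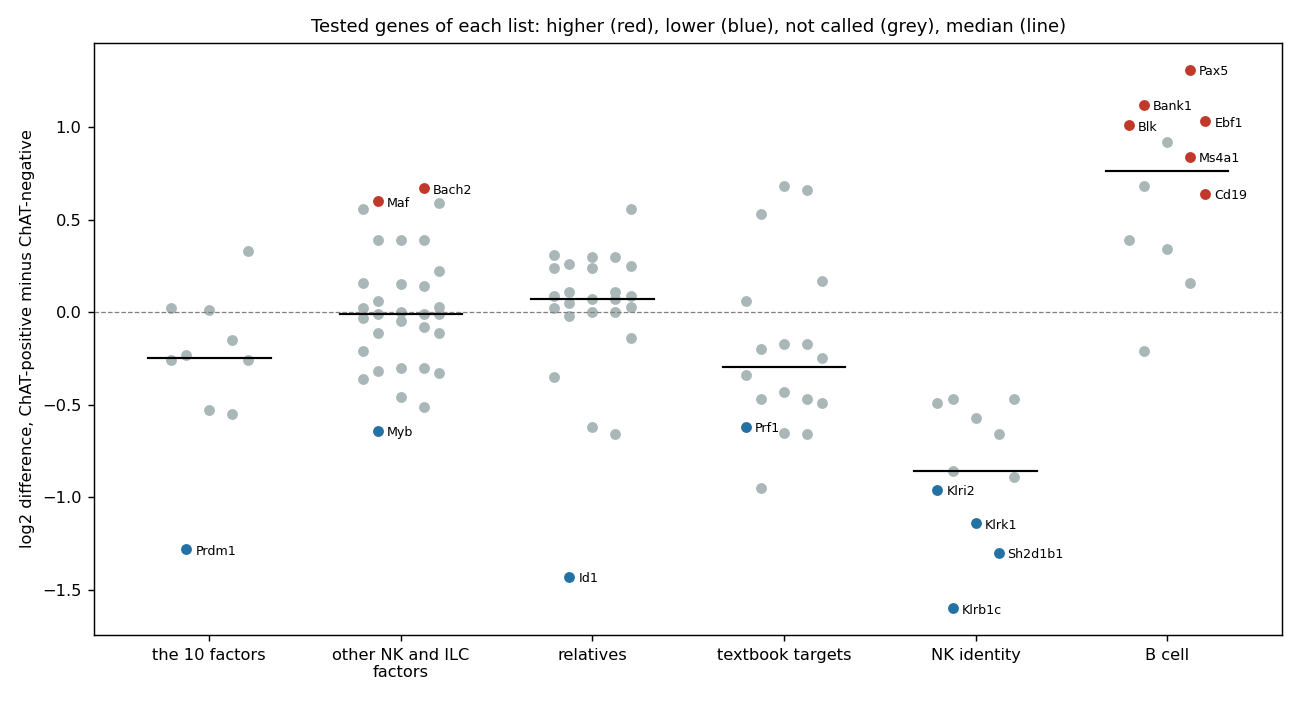
Log2 difference between groups (vertical axis) for each tested gene of 6 lists, with genes called higher in red, lower in blue and not called in grey, and a line at the median of each whole list; 1 called gene of the other NK and ILC factors is not drawn. The 10 factors hold 1 called gene, Prdm1, and the medians run from -0.86 for NK identity markers to 0.76 for B cell markers.

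Markers of some other cells, though not of all those listed here, moved with the groups, and their part in the differences above was not tested. In bulk samples fewer cells of a type and less RNA per cell cannot be told apart. The summed linear signal of 11 tested NK identity markers ran from 76.3 to 120 in ChAT-positive and from 136 to 159 in ChAT-negative pools, with 4 called lower, 0 higher and a median difference of -0.86. The difference of Prdm1, -1.28, lay toward the low end of those markers, which ran from -1.6 (Klrb1c) to -0.47 (Il2rb). Among them only Klrb1c and Sh2d1b1 (-1.3) were lower than Prdm1. B cell markers, 6 of 12 called higher, summed to between 105 and 139 against 70.5 and 95.3, and ILC2 and ILC3 markers, 6 of 12 higher, to between 58.7 and 98.3 against 42.6 and 56.7. Several of the 10 factors, among them Ets1, Klf2, Tcf7 and Prdm1, are also expressed by B or T cells. T cell markers, of which limma called 0 of 11 (unadjusted p under 0.05 for 1 with a higher and 1 with a lower mean), summed to between 18.5 and 33 against 19.9 and 29.9. Basophil and mast cell markers, 5 of 7 lower, summed to between 0.891 and 3.79 against 9.11 and 43.3. Cd200r3 and the untested Ms4a2 were well above background on 0 of 4 ChAT-positive arrays. Prss34 and Fcer1a were so on 3 of those arrays, and Mcpt8, Cpa3, Gata2 and Hdc on all 4. Erythroid and platelet markers, 4 of 9 lower, summed to between 13.8 and 17.8 against 24.7 and 41.7. Neutrophil markers, 2 of 8 lower, summed to between 32.3 and 58.4 against 49.3 and 84.4, and markers of monocytes, macrophages and dendritic cells, 1 of 11 lower, to between 35 and 43 against 32.5 and 48.3. Among the T cell markers, Themis was well above background on 0 of 8 arrays, and Cd8a and Cd8b1 on only some. The others, Cd3e, Cd3d, Cd3g, Cd4, Cd5, Cd28, Lat, Bcl11b and Trat1, were so on all 8.

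Within each group the factors tended to be high on the same array. ChAT-positive pool 2 was the highest of its group for 8 of the 10 factors, all except Zeb2 and Ets1, and ChAT-negative pool 2 was the highest of its group for 7, all except Tbx21, Tox and Ets1. Klf2 deviated most, at 0.54 and 0.6 above the group means on those arrays. The lowest array was less fixed: ChAT-positive pools 3 and 4 were lowest for 4 members each and ChAT-negative pool 3 for 5. The summed NK identity signal was also highest on both arrays numbered 2 within their groups, at 120 and 159, as was that of T cell markers, at 33 and 29.9, and the basophil and mast cell sum was lowest there, at 0.891 and 9.11. Under quantile normalization and normexp the counts stayed at 8 and 7, and under median scaling they were 7 and 0. Same-numbered arrays held the same position on their slide, per the file headers, and the part of that position was not tested.

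**Figure D5:**
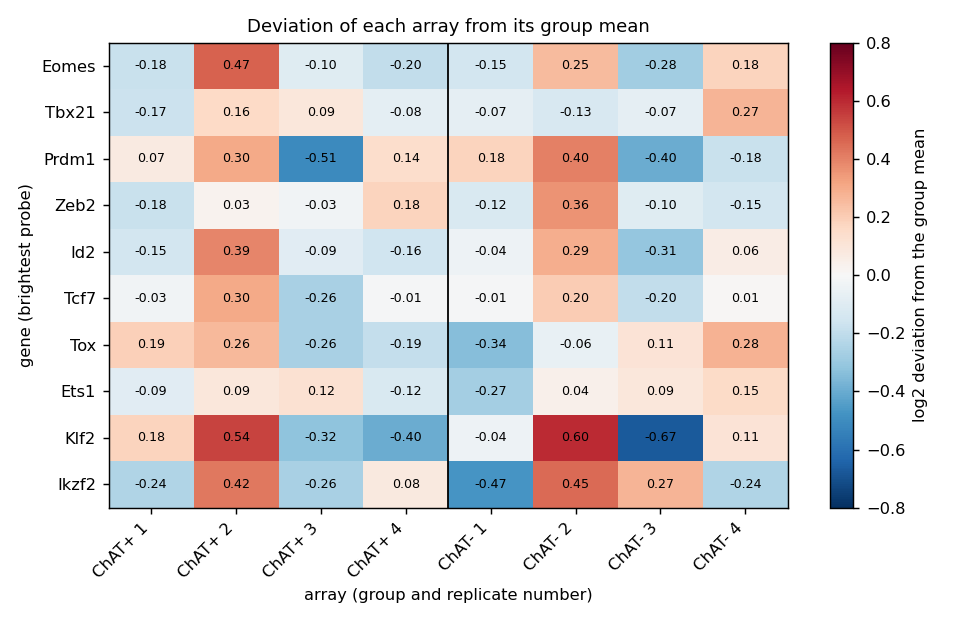
Log2 deviation of each array from the mean of its group (colour and printed value) for the brightest probe of each of the 10 factors (rows) on the 8 arrays (columns). The columns of both arrays numbered 2 are mostly above their group means, by up to 0.6 for Klf2.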

How the data were processed

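The arrays were 1-colour Agilent arrays of cDNA amplified from 100 ng of total RNA. Feature Extraction 11.5.1.1, per the file headers, gave each spot a processed intensity, already corrected for background and not scaled between arrays. The authors also deposited log2 values of 31942 probes; each column equalled the log2 values used here plus a constant of at most 0.00655, so its scale, centring and direction are known, and its medians ran from -0.72 to -0.63. Columns of values without a sample numbered 0.

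After leaving out control spots and 1344 flagged spot values, spots of a probe were averaged, and 26762 of 55681 probes had 1 symbol through their RefSeq accession (28919 had none). A probe was tested if well above background on 4 or more of the 8 arrays. Tests were two-sided in limma 3.58.1 (R 4.3.3), with the brightest probe per gene and then with every probe. The scripts were tested on simulated data. Members, lists, pairs and tests were chosen with earlier results of these data known. Named are the 10 members with every probe, Chat, Zeb1, Id3 and, from each list of factors, relatives and targets, up to 4 called genes by adjusted p; cell type markers are given as counts. Outside that rule, S1pr5, S1pr1 and the NK identity, basophil, mast cell and T cell markers given by name were named after their values were seen. Values of 2 listed genes that are no members are not reported here. The alternatives, 22 in all, varied scaling, normexp on the median spot signal, the filter, the probe rule, variance and weights, a replicate block, the threshold, the source of values and the arrays kept; those for second probes, and the counts of highest arrays under each scaling, were added after seeing the data.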

Additional observations from a re-analysis of the deposited data

Results flagged for a closer look

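In 4 of 30 groups of 4 arrays (15 probes in each reporter group), 1 array stood far from the other 3; its gap to the nearest passed Dixon's 95% limit, which chance passes in about 1 in 20 groups. Eomes by its brighter probe was at 3.38 in ChAT-positive pool 2, with the others between 2.71 and 2.81, and Id2 was at 4.79 in the same pool, with the others between 4.24 and 4.31. Zeb2 by its brighter probe was at 1.17 in ChAT-negative pool 2, with the others between 0.67 and 0.72. Tbx21 was at 3.37 in ChAT-negative pool 4, with the others between 2.97 and 3.03.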

How the results depend on the processing

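Among the 10 factors, 0 were called higher in all 22 alternatives, with 0 also at an unadjusted p under 0.05 in the fit as reported. The count called lower, 1, was 0 with no filter on dim probes, 0 at an adjusted p under 0.01, 0 without both arrays numbered 3 and 1 whichever array was left out. Of the other factors, 3 higher and 1 lower became 1 and 0 under median scaling, 1 and 0 with no filter, 1 and 0 with every probe on its own, 1 and 0 at 0.01 and 0 and 0 without both arrays numbered 3; the higher count was 1 with a filter at 1 of 8 arrays, and the lower count was 2 under normexp. Leaving out 1 array gave 1 to 2 higher and 0 to 2 lower. Over all genes, 383 higher and 428 lower became 211 and 119 under median scaling, 98 and 125 with no filter, 44 and 60 at 0.01, and 21 and 35 without both arrays numbered 3; array weights gave 577 higher. Leaving out 1 array gave 94 to 306 higher and 116 to 425 lower, with fewer samples in the fit.

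Differences near 0 changed sign and were not called on either side. Tbx21 was -0.1 under normexp, -0.079 with array weights, -0.037 without both arrays numbered 3 and -0.035 to 0.11 with 1 array left out. Tcf7 was -0.029 under quantile normalization and -0.088 to 0.1 with 1 array left out. Ikzf2 was 0.067 under median scaling and 0.024 without both arrays numbered 3. Zeb1 was -0.023 under quantile normalization, -0.0062 with array weights and -0.066 to 0.077 with 1 array left out. With 1 array left out, the second probe of Tcf7 ran from -0.092 to 0.13 and that of Ets1 from -0.095 to 0.26. The cause of these changes was not tested.

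Of the within-array differences, Eomes minus Tbx21 was -0.37 under normexp and -0.65 to -0.42 with 1 array left out, and Zeb2 minus Zeb1 was 0.24 to 0.37. Without both arrays numbered 3 the 4 values were -0.55, -1.27, 0.27 and -0.78 (Eomes minus Tbx21, Prdm1 minus Tcf7, Zeb2 minus Zeb1, Id2 minus Id3), where the smallest exact permutation p is 0.1. Same-numbered arrays deviated together with correlations of 0.54, 0.66, 0.52 and 0.03, and ChAT-positive pool 4 correlated best with ChAT-negative pool 3 (0.23). The labels state no pairing, so the fit as reported did not use the numbers. Whether they mark pairs was not settled. With the replicate number as a block, 2 members were called lower, Prdm1 and Eomes (-0.53, limma adjusted p = 0.0411; its second probe -0.71, 0.0355), 2 other factors were lower, and 1002 genes were higher and 1340 lower over all genes. The within-array values in that replicate block were -0.54, -1.29, 0.31 and -0.82, where 4 pairs allow no exact p under 0.125. A fit with the slide or scan as a block was not run, since each group has its own.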
